A study of Mus musculus with 18 samples.

Results

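The cytosolic chaperonin TRiC, also called CCT, is the subject here: the transcripts of its 8 subunit genes, Tcp1, Cct2, Cct3, Cct4, Cct5, Cct6a, Cct7 and Cct8, were followed across all 18 libraries of a study of small Maf-deficient mouse fibroblasts. The members were chosen by gene symbol, and all 8 were found among the 24318 genes of the deposited table. All 8 also passed the filter on low counts, which left 13258 genes to be tested. RNA came from 2 lines of immortalised embryonic fibroblasts, both MafF-/-::MafG-/-::MafK-/-. One line expressed T-N1G, in which the transcription factor Nrf1 (gene Nfe2l1) is tethered to MafG, and the other was the mock line. T-N1G cells and mock cells received MG132, which inhibits the proteasome, for 12 h at 0.3 µM or 1.0 µM, or vehicle, and each of these 6 groups has 3 libraries. The sources used here do not give what drives the T-N1G transgene, whether either line is a clone, or whether replicate libraries stem from separate cultures. The p-values therefore rest on a spread between libraries that may be technical only.

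TRiC is a barrel of a pair of stacked rings, each built from the 8 different subunits, and it folds newly made proteins in its central chamber with the energy of ATP. Actin and tubulin are its classic obligate clients, and many WD40-repeat proteins also depend on it. Tcp1 is the alpha subunit, Cct2 beta, Cct3 gamma, Cct4 delta, Cct5 epsilon, Cct6a zeta, Cct7 eta and Cct8 theta, and all of them bind ATP. In yeast, the subunits that bind ATP most tightly (Tcp1, Cct2, Cct4 and Cct5) sit on one side of the ring, and Cct3, Cct6a, Cct7 and Cct8 on the other. Proteasome inhibition is known to set off the heat shock response, whose regulator HSF1 binds repeated GAA units, and Nrf1 with small Maf proteins is known for restoring proteasome subunit transcripts. CNC factors such as Nrf1 bind DNA with a small Maf partner at sites with the core TGACNNNGC, where N is any base.

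Depth was 18164382 to 21196909 fragments per library. Mafg, which the deletion removes, had 3079 to 69014 fragments in the T-N1G libraries, against 6 to 25 in the mock libraries. Nfe2l1 had 22206 to 350138 fragments in the T-N1G libraries, against 5565 to 8067 in the mock libraries. Both transcripts rose with dose in T-N1G cells. Mafg stood 5.13-fold above vehicle at 0.3 µM and 20.7-fold at 1.0 µM, and Nfe2l1 4.21-fold and 15.4-fold. In T-N1G cells an effect of MG132 and an effect of this rise therefore cannot be told apart. Of the fibroblast markers, 8 of 8 genes were detected in every group. Their summed level at 1.0 µM was 2563 to 4099 CPM in T-N1G cells and 3814 to 5186 CPM in mock cells. Under vehicle it was 9519 to 10548 CPM in T-N1G cells and 9673 to 10514 CPM in mock cells. By the test described below, 8 of 8 were called lower at 1.0 µM than under vehicle in T-N1G cells (38.9% of all tested genes). In mock cells 6 were called lower (37.4%) and 1 higher (32.4%). CPM is a gene's fragment count relative to the depth of its library. For single genes it is also scaled between libraries by TMM, whereas the marker sums in this paragraph are not so scaled. Summed markers of leukocytes (5 genes, up to 2 of them at 0) stayed at or under 4.86 CPM, those of endothelium (4 genes) at or under 82.3 CPM and those of epithelium (5 genes) at or under 69.7 CPM. All 3 sums lay above the whole vehicle range at both doses in both lines, except the endothelial sum of T-N1G cells at 0.3 µM (5.58 to 9.38 CPM, against 5.22 to 7.00 CPM under vehicle). The leukocyte sum at 1.0 µM was 3.30 to 4.17 CPM in T-N1G cells and 3.73 to 4.50 CPM in mock cells, against 1.69 to 2.37 CPM and 2.40 to 2.88 CPM in the same lines under vehicle. The part of these cell type markers in the results was not tested. Libraries at 1.0 µM spread more than the others, with a median SD of log2 CPM of 0.175 in T-N1G cells and 0.142 in mock cells, against 0.0610 in T-N1G cells and 0.0471 in mock cells under vehicle. At that dose the library numbered 3 was the lowest of its group for 8 of 8 members in T-N1G cells and for 7 of 8 in mock cells, with Cct4 the exception, while 33.6% and 33.1% of all tested genes were lowest there. Its median gap to the mean of the other libraries was -0.30 on the log2 scale in T-N1G cells and -0.24 in mock cells. Values at 1.0 µM without both number 3 libraries are therefore given as well. Because these libraries were singled out by the members' own low levels, higher member values at 1.0 µM without them were fixed in advance. Such values show the size of the dependence and are not separate evidence of a rise.

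The subunits are among the most abundant transcripts of these cells. Ranked by mean FPKM, a level per length of transcript, each of the 8 stood above 97.1% to 99.0% of the tested genes. Summed over the 8, FPKM was 1745 ± 93.1, 2511 ± 160 and 2610 ± 312 in T-N1G cells under vehicle, 0.3 and 1.0 µM MG132, and 1925 ± 58.7, 2795 ± 43.1 and 3010 ± 277 in mock cells (SD, n = 3). The chaperonin's subunits are present in equal numbers in the assembled ring, whereas their transcripts were not equal. The highest subunit transcript stood above the lowest by 2.15-fold under vehicle, 2.84-fold at 0.3 µM and 3.17-fold at 1.0 µM in T-N1G cells, and by 1.95-fold, 2.81-fold and 3.39-fold in mock cells. Cct2 held the first place and Cct6a the second in all 6 groups. Under vehicle the remaining order per length was Cct5, Cct8, Cct3, Cct4, Tcp1 and Cct7 in T-N1G cells and Cct5, Cct4, Cct8, Tcp1, Cct7 and Cct3 in mock cells. The neighbours Cct3 (181 ± 7.33 FPKM), Cct4 (175 ± 7.25 FPKM) and Tcp1 (170.1 ± 8.16 FPKM) each differed from the next by less than the larger SD of the pair in T-N1G cells. The same held in mock cells for Tcp1 (194 ± 3.01 FPKM), Cct7 (193 ± 2.62 FPKM) and Cct3 (188 ± 7.93 FPKM). The testis-type paralog Cct6b, which can take the place of Cct6a in the ring, had 1 to 4 fragments per library and was not tested.

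In the mm9 coordinates of the deposited tables, Cct3 lies on chromosome 3 (88101056 to 88125688), Cct4 on chromosome 11 (22890592 to 22903336), Tcp1 on chromosome 17 (13109194 to 13133262), Cct2 on chromosome 10 (116488053 to 116500870) and Cct7 on chromosome 6 (85396778 to 85418471). Cct5 lies on chromosome 15 (31520638 to 31531559), Cct6a on chromosome 5 (130293231 to 130322319) and Cct8 on chromosome 16 (87455229 to 87496114). The listed loci are whole genes with exons and introns, and 4 of them also span other genes. That of Tcp1 spans Acat3 (523 to 1199 fragments per library), that of Cct7 spans Pradc1 (133 to 249 fragments) and that of Cct8 spans Usp16 (1374 to 1916 fragments), while Snora20 and Snora15, within the loci of Tcp1 and Cct6a, had 0 fragments. The sources used here do not say whether the counting used strand, so reads in shared stretches may have been split between neighbours.

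Promoter windows of 300 bases, from 250 before the annotated start to 50 after it, were matched by symbol in RefSeq (GRCm38.p6) for 7 of the 8 members, in 9 windows. There is no window for Cct4. Letter patterns were searched on both strands: GAANNTTC and TTCNNGAA (a head-to-head and a tail-to-tail pair of heat shock units), a row of 3 units (the first pattern followed at once by NNGAA, so that it overlaps both), TGACNNNGC (the CNC-small Maf core), CCAAT, and the GC box, which reads GGGCGG. Shown are the window of Cct3, the subunit whose response differed between the lines, that of Tcp1, which did not rise at the higher dose, and those of the 3 other members in which a pair of heat shock units was found. Capitals mark every match to GAANNTTC, TTCNNGAA, TGACNNNGC or CCAAT, which reads ATTGG on the other strand.
Cct3, chr3:88296885-88297184, plus strand: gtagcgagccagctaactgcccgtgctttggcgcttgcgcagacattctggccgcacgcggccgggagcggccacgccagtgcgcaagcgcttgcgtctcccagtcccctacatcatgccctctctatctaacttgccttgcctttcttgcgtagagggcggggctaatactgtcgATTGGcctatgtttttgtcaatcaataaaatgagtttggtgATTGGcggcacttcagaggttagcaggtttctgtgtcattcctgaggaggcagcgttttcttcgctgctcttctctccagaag
Tcp1, chr17:12916079-12916378, plus strand: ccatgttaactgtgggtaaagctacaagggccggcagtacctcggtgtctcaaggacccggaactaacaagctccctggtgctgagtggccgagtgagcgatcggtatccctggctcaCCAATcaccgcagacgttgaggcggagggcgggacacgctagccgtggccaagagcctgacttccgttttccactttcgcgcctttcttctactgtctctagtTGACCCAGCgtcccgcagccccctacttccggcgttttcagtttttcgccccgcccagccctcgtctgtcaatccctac
Cct2, chr10:117063326-117063625, minus strand: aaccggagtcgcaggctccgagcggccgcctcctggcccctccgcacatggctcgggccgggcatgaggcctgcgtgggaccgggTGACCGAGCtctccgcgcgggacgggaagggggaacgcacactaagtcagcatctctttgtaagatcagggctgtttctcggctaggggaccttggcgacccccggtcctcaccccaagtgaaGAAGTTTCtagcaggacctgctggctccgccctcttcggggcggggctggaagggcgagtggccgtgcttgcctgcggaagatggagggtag
Cct6a, chr5:129787106-129787405, plus strand: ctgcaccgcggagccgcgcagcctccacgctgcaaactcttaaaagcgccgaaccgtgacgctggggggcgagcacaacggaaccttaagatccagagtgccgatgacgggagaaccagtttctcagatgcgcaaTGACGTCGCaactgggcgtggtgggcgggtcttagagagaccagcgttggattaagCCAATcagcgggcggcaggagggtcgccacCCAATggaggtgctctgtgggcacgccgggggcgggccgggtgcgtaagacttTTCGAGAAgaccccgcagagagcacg
Cct5, chr15:31601797-31602096, minus strand: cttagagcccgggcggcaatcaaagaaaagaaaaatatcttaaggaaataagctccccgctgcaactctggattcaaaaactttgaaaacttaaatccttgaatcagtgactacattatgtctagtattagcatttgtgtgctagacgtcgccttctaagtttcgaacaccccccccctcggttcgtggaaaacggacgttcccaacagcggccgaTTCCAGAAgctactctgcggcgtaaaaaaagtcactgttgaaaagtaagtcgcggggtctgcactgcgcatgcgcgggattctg

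Counting the start as base 1, the pair of units begins at base -42 in Cct2, at base 25 in Cct6a and at base -34 in Cct5. Cct2 and Cct5 each have 2 windows, and the window not shown of each holds no match to GAANNTTC, TTCNNGAA or TGACNNNGC. GAANNTTC is found in 7.86% and TTCNNGAA in 8.52% of all 32851 windows, and both patterns read the same on either strand. The row of 3 units was in 0 of the 9 member windows and in 0.603% of all windows. The TGACNNNGC core was found in Cct2 (base -165), Cct6a (base -115) and Tcp1 (base -29), 3 of 9 member windows, and in 12.4% of all windows. The window of Cct3 holds no match to this core, and instead CCAAT on its other strand at bases -74 and -33. CCAAT was in 4 of 9 member windows (Cct3, Cct6a, Cct7 and Tcp1) and in 37.4% of all windows. GGGCGG was in 8 of 9 member windows, covering 7 members, and in 35.7% of all windows. These matches describe the letters of the windows and are not evidence of binding.

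Most subunit transcripts stood higher with MG132 than under vehicle in both lines. The first question was how each line answered the inhibitor. In T-N1G cells 7 of the 8 members rose at 0.3 µM, where 29.1% of all tested genes were called higher, and the same number rose at 1.0 µM, where 37.5% were. In mock cells 8 of 8 rose at 0.3 µM (25% of all genes) and 7 of 8 at 1.0 µM (32.4%). In 0 of these comparisons was a member called lower, against 30.3% and 38.9% of all genes in T-N1G cells and 28.1% and 37.4% in mock cells at 0.3 and 1.0 µM. At 0.3 µM 8 of 8 members stood higher in every treated than in every vehicle library, in T-N1G cells (34.5% of all genes) and in mock cells (35.2%). At 1.0 µM 7 of 8 did so in each line, against 36.5% of all genes in T-N1G cells and 33.3% in mock cells. Calls are those of edgeR's quasi-likelihood test at a Benjamini-Hochberg adjusted p under 0.05 over all 13258 genes. All 6 groups share an estimate of spread for each gene in this test. SEs, intervals and p-values at 1.0 µM therefore do not reflect the wider spread of the libraries at that dose. The members' median log2 change was 0.47 at both doses in T-N1G cells, and 0.46 and 0.51 in mock cells, whereas the median of all tested genes lay between -0.04 and -0.01. Scaling by library size alone shifted the median of all genes to -0.15 in T-N1G cells and -0.13 in mock cells at 1.0 µM. RNA was taken in bulk, so a change in the cells present and a change of RNA per cell cannot be told apart.

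**Figure D1:**
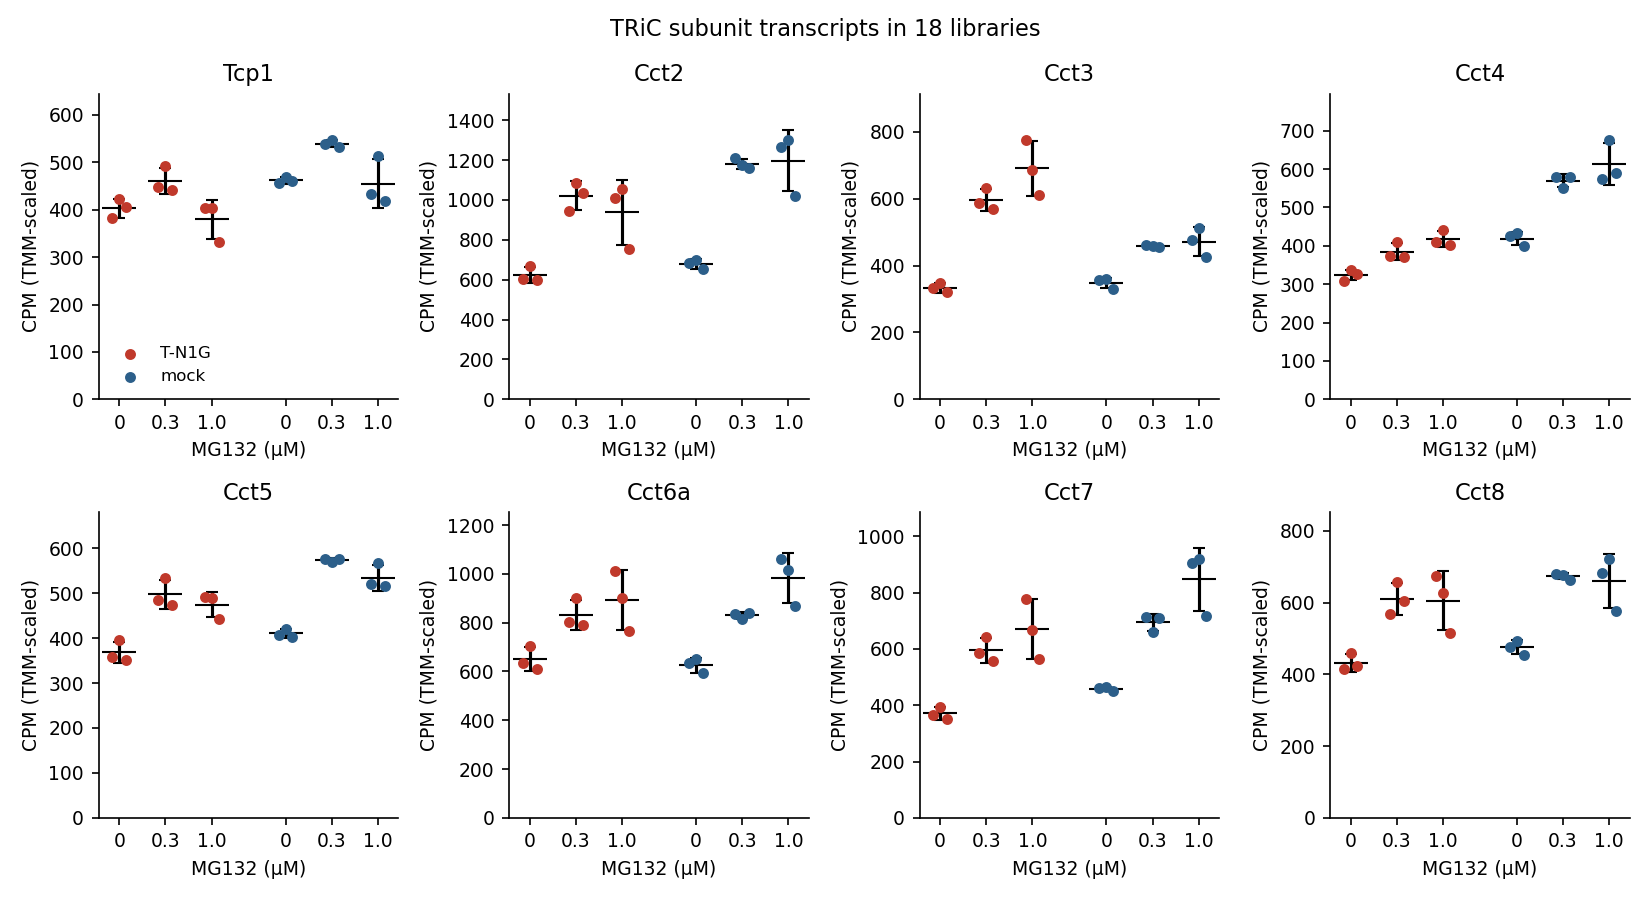
Level of each TRiC subunit transcript (vertical axes, TMM-scaled CPM from 0) by MG132 dose in µM (0 is vehicle), with T-N1G cells in red at the left and mock cells in blue at the right of each panel. Points are libraries, and black bars are the mean ± SD of 3. All subunits except Tcp1 stood higher in every MG132-treated library than in every vehicle library of the same line, and Cct3 in MG132-treated T-N1G cells stood above every mock library.

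Cct2 and Cct7 changed most in mock cells, and Cct3 in T-N1G cells. Cct2 stood at 602, 668 and 598 CPM under vehicle, 943, 1087 and 1034 CPM at 0.3 µM and 1010.5, 1053 and 753 CPM at 1.0 µM in T-N1G cells. In mock cells its libraries held 685, 700.3 and 654 CPM under vehicle, 1209.6, 1178 and 1158 CPM at 0.3 µM and 1267, 1300.2 and 1021 CPM at 1.0 µM. In both lines Cct2 stepped up at the lower dose with no overlap with vehicle, and at the higher dose the number 3 library stood well under the others. Its log2 change at 1.0 µM was 0.59 (SE 0.112, adjusted p = 0.000108) in T-N1G cells and 0.82 (SE 0.113, adjusted p = 4.19e-06) in mock cells, or 0.74 and 0.98 without the number 3 libraries. At 0.3 µM it was 0.71 (adjusted p = 2.6e-05) in T-N1G cells and 0.80 (adjusted p = 1.12e-05) in mock cells.

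Cct7 is the eta subunit, which lies on the side of the ring that binds ATP weakly in yeast. Cct7 stood at 366, 395 and 352 CPM under vehicle, 587, 643 and 557 CPM at 0.3 µM and 778, 668 and 564 CPM at 1.0 µM in T-N1G cells. In mock cells it stood at 461, 463 and 449 CPM under vehicle, 715, 659.7 and 709 CPM at 0.3 µM and 904, 921 and 718 CPM at 1.0 µM. Every treated library lay above every vehicle library in each line. Its log2 change at 1.0 µM was 0.85 (SE 0.108, adjusted p = 1e-06) in T-N1G cells and 0.89 (SE 0.108, adjusted p = 9.13e-07) in mock cells, or 0.98 and 1.06 without the number 3 libraries. At 0.3 µM it was 0.68 in T-N1G cells and 0.60 in mock cells. A stretch of its listed locus is shared with Pradc1, whose 133 to 249 fragments per library compare with 7646 to 17440 for Cct7.

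Cct4, Cct5, Cct6a and Cct8 rose by less than Cct7, and called changes among these 4 lay between 0.25 and 0.65 on the log2 scale. At 1.0 µM in T-N1G cells the log2 changes were 0.37 for Cct4, 0.36 for Cct5, 0.46 for Cct6a and 0.49 for Cct8, with adjusted p between 0.000163 and 0.000432. At 1.0 µM in mock cells they were 0.55, 0.38, 0.65 and 0.47 in the same order, with adjusted p between 3.36e-06 and 0.000331. Without the number 3 libraries they were 0.41, 0.43, 0.57 and 0.61 in T-N1G cells and 0.64, 0.47, 0.79 and 0.62 in mock cells, again in that order. At 0.3 µM they were 0.25, 0.43, 0.36 and 0.50 in T-N1G cells and 0.44, 0.48, 0.41 and 0.50 in mock cells. The weakest of these calls was that of Cct4 at 0.3 µM in T-N1G cells (adjusted p = 0.00808), which was lost without T-N1G replicate 2 at 0.3 µM (adjusted p = 0.0524). For Cct2, Cct3, Cct5, Cct6a, Cct7 and Cct8 the calls against vehicle held at both doses and in both lines under each of the 28 alternatives computed.

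Tcp1, the alpha subunit after which the family is named, did not stay with the others at the higher dose. It stood at 382, 422 and 405 CPM under vehicle, 447, 492 and 441 CPM at 0.3 µM and 404, 404 and 332 CPM at 1.0 µM in T-N1G cells. In mock cells it stood at 456, 470.2 and 459.8 CPM under vehicle, 539, 547 and 533 CPM at 0.3 µM and 433, 514 and 419 CPM at 1.0 µM. In each line the 0.3 µM libraries lay above the vehicle libraries, and the 1.0 µM libraries overlapped with vehicle. The log2 change at 0.3 µM was 0.19 (SE 0.0871, adjusted p = 0.066) in T-N1G cells and 0.22 (SE 0.087, adjusted p = 0.0379) in mock cells. With the library number as a block the T-N1G value passed (adjusted p = 0.0289), which makes 8 of 8 members, and it passed in 10 of 28 alternatives. The mock value was lost without mock replicates 1 or 3 under vehicle, without any 1 of the mock libraries at 0.3 µM, and with library size alone (log2 0.17, adjusted p up to 0.0965 over these). At 1.0 µM the log2 change was -0.08 (95% interval -0.27 to 0.10, adjusted p = 0.387) in T-N1G cells and -0.02 (95% interval -0.20 to 0.16, adjusted p = 0.837) in mock cells. Without the number 3 libraries these values were 0.02 and 0.10. With library size alone, Tcp1 was called lower in T-N1G cells (log2 -0.23).

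**Figure D2:**
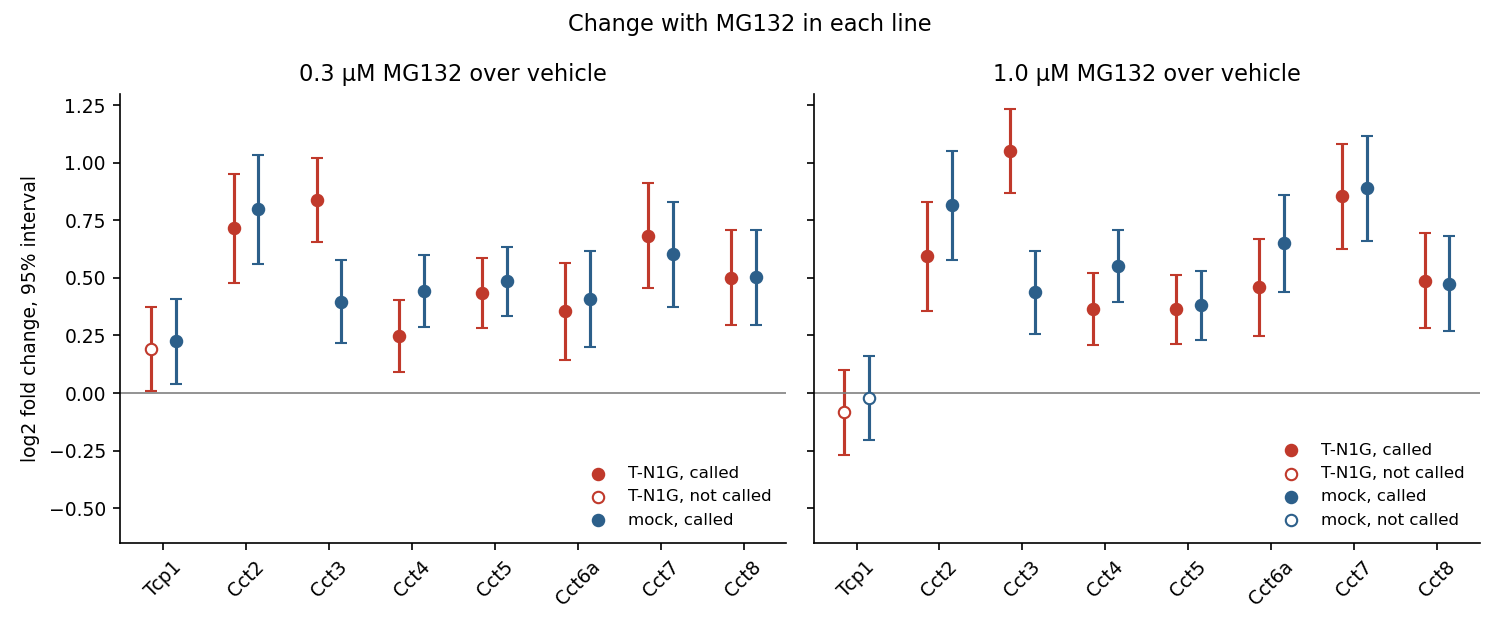
Log2 fold change of each subunit transcript with MG132 over vehicle (vertical axis, edgeR, 95% interval), at 0.3 µM at the left and 1.0 µM at the right, with T-N1G cells in red and mock cells in blue. Filled circles passed the test at an adjusted p under 0.05 over all genes; at 1.0 µM Tcp1 alone did not pass in either line, and Cct3 reaches 1.05 in T-N1G cells against 0.44 in mock cells.

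The step between the doses themselves was small for most members, and each of its calls was lost in some fit that left out a single library. In T-N1G cells 1 of 8 was called higher at 1.0 than at 0.3 µM (29.3% of all genes) and 1 lower (30.8%), and in mock cells likewise 1 higher (21.8%) and 1 lower (27.8%). Without both number 3 libraries the counts were 3 higher and 1 lower in T-N1G cells, with Cct6a (0.19) and Cct7 (0.27) beside Cct3 (0.28). In mock cells they were 2 higher and 0 lower, with Cct6a (0.36) beside Cct7 (0.43). Over all genes that fit called 7783 in either direction in T-N1G cells and 6517 in mock cells. Without T-N1G replicate 3 at 1.0 µM alone, 2 were higher in T-N1G cells, and without mock replicate 3 at 1.0 µM alone, 2 were higher in mock cells. The members' median step was 0.05 in T-N1G and 0.03 in mock cells, and 0.11 and 0.15 without the number 3 libraries. Tcp1 was the lower one in both lines, at log2 -0.28 (SE 0.0872, adjusted p = 0.0113) in T-N1G cells and -0.25 (SE 0.0871, adjusted p = 0.0263) in mock cells. Its 1.0 µM libraries lay wholly under its 0.3 µM libraries in each line, as 31% of all genes did in T-N1G cells and 32.7% in mock cells. The call of Tcp1 held in 26 of 28 alternatives in T-N1G cells and in 9 of 28 in mock cells, where the adjusted p reached 0.156. Without T-N1G replicate 2 at 0.3 µM the T-N1G call was lost. In mock cells it was lost without any 1 vehicle library of either line, T-N1G replicate 3 at 0.3 µM, mock replicate 1 or 2 at 0.3 µM, or mock replicate 1 or 3 at 1.0 µM.

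The member that was higher at 1.0 than at 0.3 µM was Cct3 in T-N1G cells (log2 0.21, SE 0.0857, adjusted p = 0.0396) and Cct7 in mock cells (log2 0.29, SE 0.107, adjusted p = 0.0337). Cct3 held in 18 of 28 alternatives and Cct7 in 23 of 28. Cct3 was lost without any 1 of the mock libraries at 0.3 µM, of T-N1G replicates 1 or 3 at 0.3 µM or of T-N1G replicates 1 or 2 at 1.0 µM. Cct7 was lost without any 1 of the mock libraries at 0.3 µM or of mock replicates 1 or 2 at 1.0 µM. Cct6a lay just outside in mock cells (log2 0.24, adjusted p = 0.0514) and passed in 19 of 28 alternatives. With all libraries, the 95% intervals of all members not named here for a line included 0.

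Cct3, the gamma subunit, was the one member whose response to MG132 differed between the lines. It stood at 331, 349 and 320.2 CPM under vehicle, 587, 631 and 569 CPM at 0.3 µM and 775, 687 and 611 CPM at 1.0 µM in T-N1G cells. In mock cells it stood at 356, 358 and 329.8 CPM under vehicle, 460.1, 458 and 456 CPM at 0.3 µM and 476, 512 and 426 CPM at 1.0 µM. The lines overlapped under vehicle, and at either dose every T-N1G library lay above every mock library, as 33.8% of all genes did at 0.3 µM and 27.9% at 1.0 µM. The log2 change over vehicle was 0.84 (SE 0.0863, adjusted p = 1.79e-07) at 0.3 µM and 1.05 (SE 0.0867, adjusted p = 3.44e-09) at 1.0 µM in T-N1G cells. In mock cells it was 0.40 (SE 0.0859, adjusted p = 0.000816) and 0.44 (SE 0.086, adjusted p = 0.000195). At 1.0 µM without the number 3 libraries it was 1.15 in T-N1G cells and 0.57 in mock cells.

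An interaction term (T-N1G minus mock) tested whether the lines responded unequally, and 1 of 8 members was called higher at each dose and 0 lower. It cannot tell the response to MG132 apart from the rise of the Mafg and Nfe2l1 transcripts with dose in T-N1G cells. Of all genes, 14.2% were called higher and 11% lower (25.1% in either direction) at 0.3 µM, and 22.9% and 22.1% at 1.0 µM. For Cct3 the interaction was 0.44 on the log2 scale (SE 0.121, adjusted p = 0.012) at 0.3 µM and 0.61 (SE 0.121, adjusted p = 0.000498) at 1.0 µM. Both calls held in 28 of 28 alternatives, with values of 0.40 to 0.48 and 0.48 to 0.65, and the value at 1.0 µM was 0.58 without the number 3 libraries. For the other 7 members at 1.0 µM the interaction ran from -0.22 (Cct2, 95% interval -0.55 to 0.11) to 0.01 (Cct8, 95% interval -0.28 to 0.31), with adjusted p of 0.168 or more. Cct4, at -0.18 (95% interval -0.40 to 0.04), was called lower at 1.0 µM only without mock replicate 1 at 1.0 µM. At 0.3 µM the other 7 ran from -0.20 (Cct4) to 0.08 (Cct7). Among 57 other tested genes within 1 Mb of Cct3, 15 had a higher and 13 a lower interaction at 1.0 µM.

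Levels of the lines were also compared at each treatment. Under vehicle 0 of 8 members were called higher in T-N1G cells (8.43% of all genes) and 1 lower (7.72%), which was Cct4, where 16.1% of all genes were called in either direction. At 0.3 µM 1 was higher (25% of all genes), Cct3 at log2 0.38, and 3 were lower (23.5%), namely Tcp1, Cct4 and Cct5. At 1.0 µM 1 was higher (30.7%), Cct3 at log2 0.55, and 5 were lower (31.3%), which added Cct2 and Cct7 to those of the lower dose. Without the number 3 libraries the counts at 1.0 µM were also 1 and 5, where 7783 genes were called in either direction. Cct3 was then at 0.52, Cct4 at -0.60, Cct7 at -0.38, Cct2 at -0.36, Tcp1 at -0.27 and Cct5 at -0.19. The members' median log2 difference was -0.15 under vehicle, -0.21 at 0.3 µM and -0.22 at 1.0 µM, with the median of all genes between -0.01 and 0.01.

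**Figure D3:**
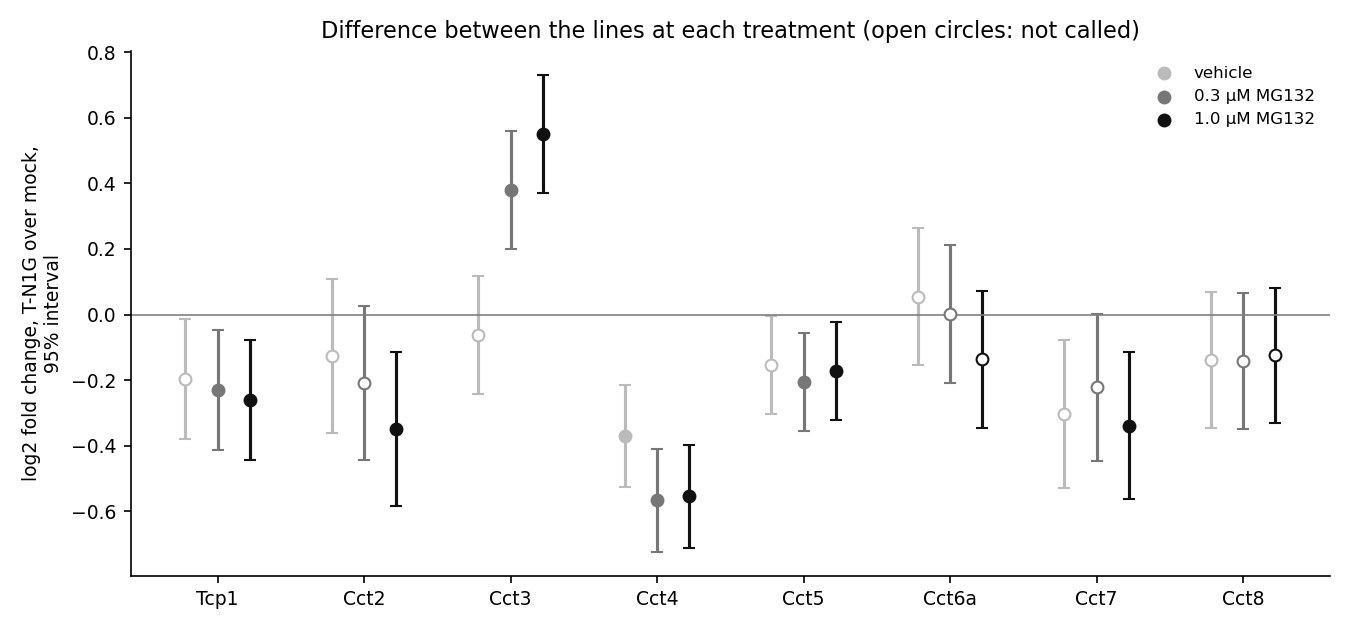
Log2 fold change of each subunit transcript in T-N1G over mock cells (vertical axis, edgeR, 95% interval) under vehicle (light grey), 0.3 µM (grey) and 1.0 µM MG132 (black). Filled circles passed the test; Cct4 lies at -0.37, -0.57 and -0.55 in the 3 treatments, and Cct3 at -0.06, 0.38 and 0.55.

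Cct4, the delta subunit, was lower in T-N1G cells at every treatment. Under vehicle its libraries held 309, 336 and 327 CPM in T-N1G cells, against 426, 432 and 399 CPM in mock cells. At 0.3 µM they held 373, 411 and 371 CPM in T-N1G cells, against 579, 551 and 579.9 CPM in mock cells. At 1.0 µM they held 411, 442 and 401 CPM in T-N1G cells, against 575, 675 and 590.1 CPM in mock cells. The lines did not overlap at any treatment, and in this direction 24.6% of all genes did not overlap under vehicle, 32.6% at 0.3 µM and 26.8% at 1.0 µM. The log2 difference was -0.37 (SE 0.0745, adjusted p = 0.00201) under vehicle, -0.57 (SE 0.0745, adjusted p = 6.18e-06) at 0.3 µM and -0.55 (SE 0.0745, adjusted p = 4.02e-06) at 1.0 µM, and all 3 calls held in 28 of 28 alternatives.

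Many genes on the chromosome of Cct4 were lower in T-N1G cells as well. Of 1108 other tested genes on chromosome 11, 24.6% were called lower and 2.71% higher under vehicle, with a median log2 difference of -0.22. On chromosome 6, which holds Cct7, 12.9% of 642 other genes were lower, and on the chromosomes of the other 6 members 2.97% to 5.95% were. Among 15 other tested genes within 1 Mb of Cct4, 2 were lower and 3 higher under vehicle (median -0.12), 7 lower and 3 higher at 0.3 µM (median -0.26), and 6 lower and 3 higher at 1.0 µM (median -0.29). The part of this chromosome-wide difference in the level of Cct4 was not tested. At 0.3 µM 41.2% of the chromosome 11 genes were lower and 13.3% higher, against 23.5% lower and 25% higher over all genes. At 1.0 µM 42.1% were lower and 21.03% higher, against 31.3% and 30.7% over all genes, while 35.5% were lower on chromosome 6 and 34.1% on chromosome 10.

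The other differences between the lines rested on fewer settings. Under vehicle Cct7 was at log2 -0.30 (adjusted p = 0.0622) and passed with the library number as a block (adjusted p = 0.0225), which makes 2 of 8 members lower. It also passed without T-N1G replicate 1 or 3 or mock replicate 2 or 3 at 1.0 µM. With only the vehicle groups in the fit, 5 members were lower, Tcp1 (-0.20), Cct5 (-0.16), Cct7 (-0.31) and Cct8 (-0.14) beside Cct4. In that fit calls rose over all genes too, with 4882 genes called in either direction instead of 2141. At 0.3 µM Tcp1 was at log2 -0.23 (adjusted p = 0.037) and Cct5 at -0.21 (adjusted p = 0.0238). Both calls were lost without T-N1G replicate 1 or 3 or any 1 mock library at 0.3 µM, leaving 1 member lower, and the count was 5 without T-N1G replicate 3 at 1.0 µM. At 1.0 µM the log2 differences were -0.26 for Tcp1, -0.35 for Cct2, -0.17 for Cct5 and -0.34 for Cct7, with adjusted p of 0.0106 to 0.043. With only the 1.0 µM groups in the fit, these 4 calls were lost and Cct4 alone was lower. That of Cct5 was also lost without any 1 mock library at 0.3 µM (adjusted p of 0.0509 to 0.0526). Cct6a and Cct8 were called at 0 of the 3 treatments, at -0.14 (95% interval -0.35 to 0.07) and -0.12 (95% interval -0.33 to 0.08) at 1.0 µM.

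Because the members moved unequally, their balance shifted. Each subunit's share of the summed FPKM of the 8 was computed per library. Cct3 made up 10.4 ± 0.23%, 12.9 ± 0.31% and 14.8 ± 0.59% under vehicle, 0.3 and 1.0 µM in T-N1G cells, and 9.78 ± 0.16%, 9.0 ± 0.10% and 8.92 ± 0.12% in mock cells (SD, n = 3). By FPKM it took the third place in MG132-treated T-N1G cells and the seventh in MG132-treated mock cells. Tcp1 made up 9.75 ± 0.32%, 7.78 ± 0.095% and 6.32 ± 0.15% in T-N1G cells and 10.1 ± 0.28%, 8.23 ± 0.19% and 6.65 ± 0.41% in mock cells, and was the lowest of the 8 at both doses in each line. Cct7 made up 8.98 ± 0.16%, 10.1 ± 0.33% and 11.1 ± 0.63% in T-N1G cells and 10.0 ± 0.17%, 10.6 ± 0.35% and 12.5 ± 0.58% in mock cells. Cct8 varied least, with shares of 9.99% to 10.8% over the 6 groups. Both sides of the yeast ring order held members of small and of large change, since Tcp1 and Cct2 share one side and Cct3 and Cct8 the other.

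**Figure D4:**
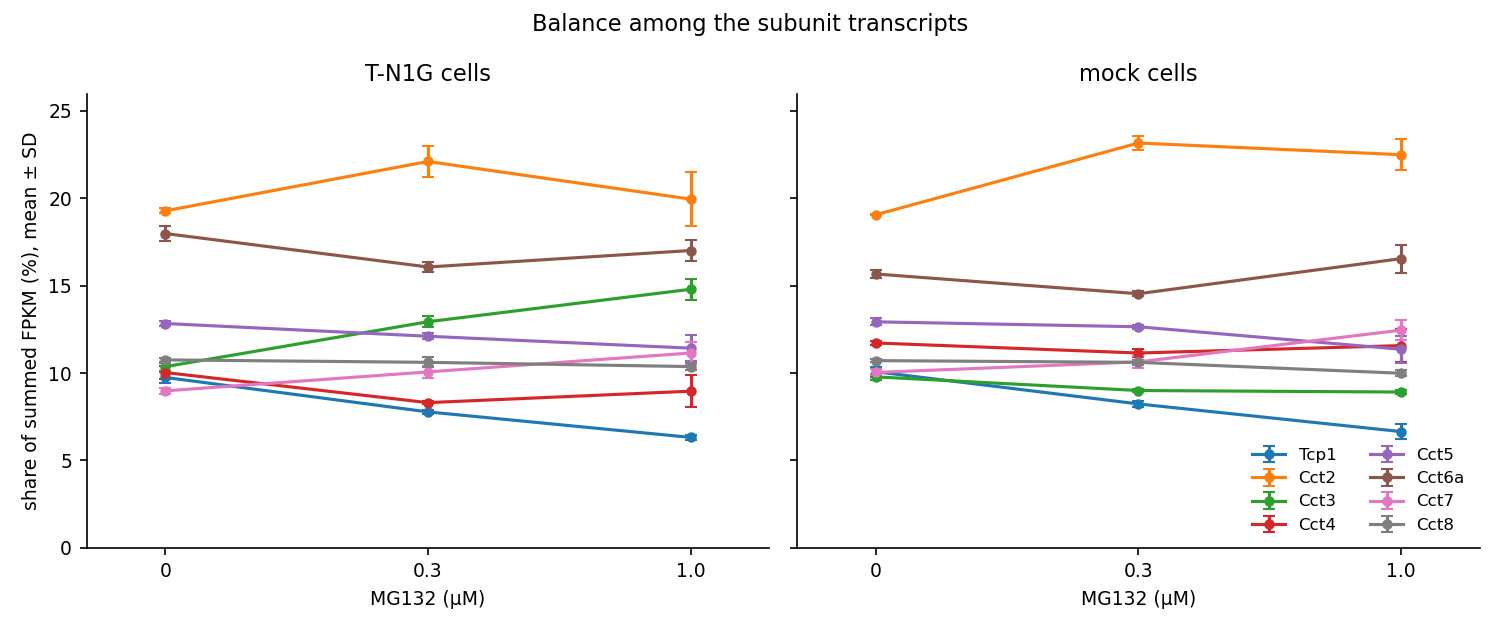
Share of each subunit in the summed FPKM of the 8 (vertical axis, percent, mean ± SD of 3 libraries) by MG132 dose in µM, with T-N1G cells at the left and mock cells at the right. Cct3 lies at 14.8% in T-N1G cells and 8.92% in mock cells at 1.0 µM, Tcp1 is lowest at both doses, and Cct2 and Cct6a stay first and second.

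Across the 18 libraries the members were correlated with each other to unequal degrees. Pearson's r of log2 CPM was 0.81 to 0.98 over the 10 pairs among Cct2, Cct5, Cct6a, Cct7 and Cct8. It was -0.09 to 0.61 for pairs with Tcp1, -0.09 to 0.76 for pairs with Cct3 and 0.19 to 0.83 for pairs with Cct4. The lowest pair of Cct4 was with Cct3, and its pairs with Cct5 and Cct7 (0.83 each) lay within the range of the 10 pairs. These values describe libraries that share 6 groups and their dose steps. The 8 other genes whose log2 CPM most resembled the mean of the members over the same libraries were Hnrnpm (r = 0.970), Strap, Rbm42, Eif3h, Phf10, Eif1, Gtf2f2 and Gmps (r = 0.964). Hnrnpm and Rbm42 encode RNA-binding proteins, Eif1 and Eif3h translation initiation factors, Gtf2f2 a general transcription factor and Gmps an enzyme of GMP synthesis. Strap, a WD40-repeat protein, had log2 changes at 1.0 µM of 0.96 in T-N1G cells and 0.77 in mock cells. Of 13250 other genes 181 exceeded r = 0.9, and the median was -0.03.

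Other genes of the folding pathway are set against the shares of all tested genes at 1.0 µM, of which T-N1G cells had 37.5% called higher and 38.9% called lower, and mock cells 32.4% and 37.4%. Prefoldin, which hands unfolded actin and tubulin to TRiC, had 2 of 6 subunits higher and 1 lower at 1.0 µM in T-N1G cells, and 2 higher and 2 lower in mock cells. Pfdn4 was highest (log2 0.83 in T-N1G and 0.40 in mock cells) and Pfdn5 lowest (-0.95 and -1.05), and the list medians were 0.02 and -0.10. The counts of 2 lie near the shares of all genes, while the 1 lower subunit in T-N1G cells lies under its share, on 6 genes only. Of the 3 prefoldin-like genes of the URI complex, Pdrg1 was at 0.69 in T-N1G cells and 0.11 (adjusted p = 0.344) in mock cells, and Uri1 was lower in both (-0.98 and -0.53). Phosducin-like proteins regulate folding by TRiC. Of their 5 genes 3 were expressed enough to be tested, and 3 were higher at 1.0 µM in T-N1G cells, while 1 was higher and 2 lower in mock cells. Txndc9 led in both lines (0.36 and 0.28), and the lowest was Pdcl3 (0.26) in T-N1G cells and Pdcl (-0.44) in mock cells.

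Proteins akin to TRiC were listed too. The chaperonin-like BBS proteins work with TRiC in assembling the BBSome of cilia. At 1.0 µM 2 of their 3 genes were lower in T-N1G cells (38.9% of all genes) and 3 of 3 in mock cells (37.4%), with 0 higher. The range was -0.54 (Bbs10) to -0.15 (Bbs12, adjusted p = 0.292) in T-N1G cells and -0.50 (Bbs12) to -0.28 (Mkks) in mock cells. The chaperonin of mitochondria, made of Hspd1 and its lid Hspe1, rose at both doses in both lines, and at 1.0 µM by more than any TRiC subunit. At 1.0 µM Hspd1 was at log2 1.76 and 1.57 and Hspe1 at 1.69 and 1.85 in T-N1G and mock cells, with adjusted p between 8.57e-12 and 1.66e-10. Of the heat shock list 12 of 12 genes rose at 1.0 µM in T-N1G cells (37.5% of all genes) and 11 of 12 in mock cells (32.4%). The medians were 2.92 and 2.77. Hspa1a, an inducible Hsp70 gene whose reads cannot be told safely from its near-identical copy Hspa1b, had the largest change, and Hsf1 itself the smallest (0.22 and -0.32).

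**Figure D5:**
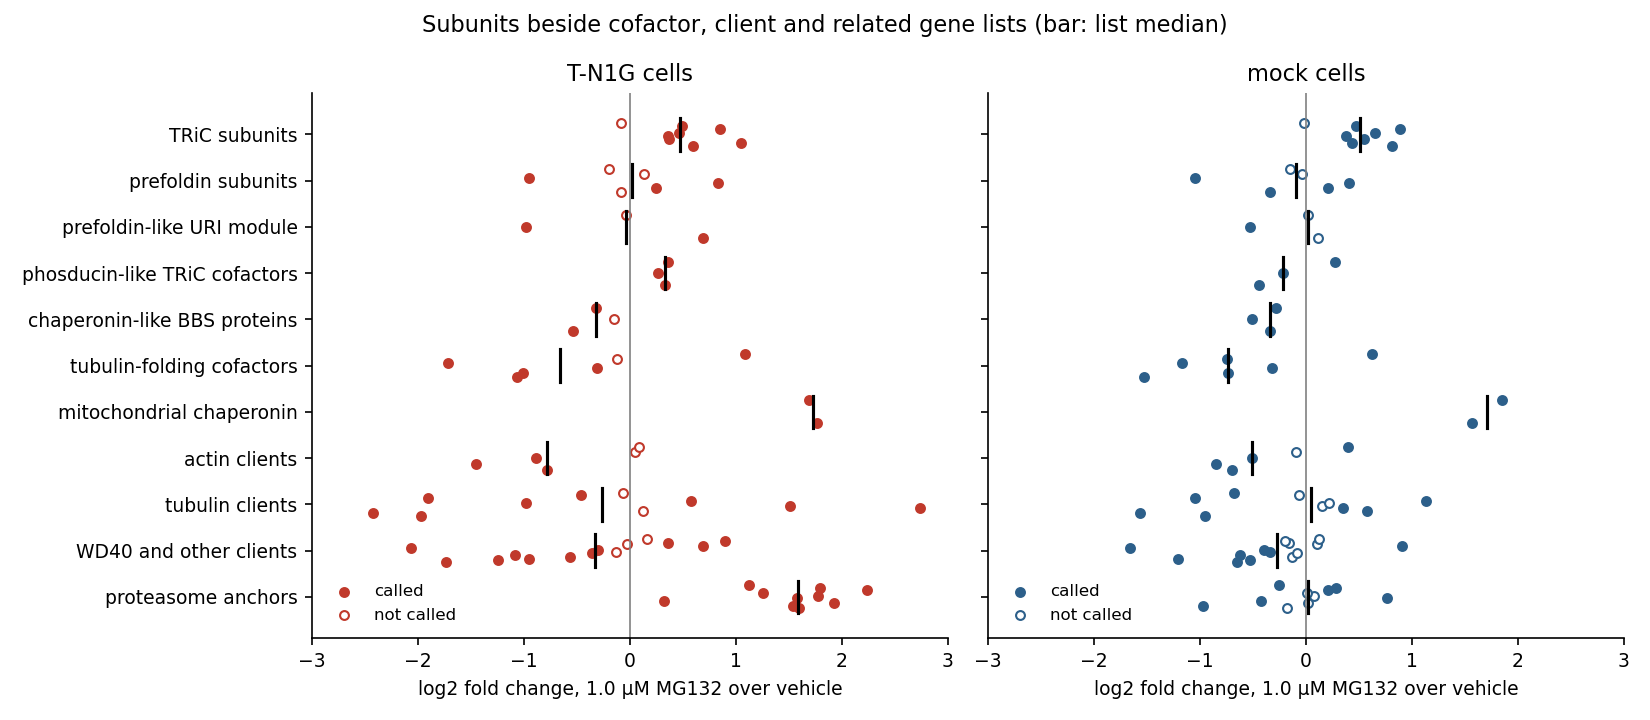
Log2 fold change at 1.0 µM MG132 over vehicle (horizontal axis, edgeR) of the TRiC subunits and of the tested genes of 10 related lists, in T-N1G cells at the left and mock cells at the right. Each circle is a gene, filled where it passed the test, and the bar is the list's median, which for TRiC is 0.47 and 0.51, for prefoldin 0.02 and -0.10 and for the proteasome genes 1.59 and 0.02.

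Of TRiC's client transcripts, 3 of 3 actin genes fell at 1.0 µM in both lines, where 38.9% of all genes did in T-N1G cells and 37.4% in mock cells. Of 2 genes of actin-related proteins listed with them, 0 changed in T-N1G cells and Actr3 rose in mock cells (0.40). Actb was lowest, at -1.45 in T-N1G cells and -0.85 in mock cells. Its level in T-N1G cells was 2623 ± 437 CPM at that dose, against 7171 ± 464 CPM under vehicle (SD, n = 3 each). Of 10 tested tubulin genes 3 rose and 5 fell in T-N1G cells, and 3 rose and 4 fell in mock cells, near the shares of all genes in both directions (37.5% higher in T-N1G and 32.4% in mock cells). Tuba1b was lowest in both (-2.42 and -1.57), and the highest was Tuba4a in T-N1G cells (2.74) and Tubb3 in mock cells (1.14). Of 14 WD40-repeat and other clients 3 rose and 8 fell in T-N1G cells, and 1 rose and 7 fell in mock cells, against the same shares of all genes. Plk1, a mitotic kinase, was lowest (-2.06 and -1.66), and the highest was Rptor, the Raptor subunit of mTORC1, in T-N1G cells (0.89) and Ppp2r2a, a phosphatase subunit, in mock cells (0.91).

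The cofactors that assemble tubulin dimers after TRiC fell in 4 of 6 cases in T-N1G cells and in 5 of 6 in mock cells, where 38.9% and 37.4% of all genes were lower, and Tbce alone rose (1.08 and 0.62). The lowest was Tbcc (-1.71) in T-N1G cells and Arl2 (-1.53) in mock cells. Proteasome genes, known targets of Nrf1, were listed for comparison. Of 10 listed subunits 10 rose in T-N1G cells at 1.0 µM (37.5% of all genes), from Psmb5 (0.32) to Psmd11 (2.24). In mock cells 3 rose (32.4%) and 3 fell (37.4%), from Psma5 (-0.97) to Psmc2 (0.77). Their interaction at 1.0 µM was called higher for 10 of 10, with a median of 1.60, where 22.9% of all genes were called higher. For TRiC it was 1 of 8, with a median of -0.05.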

How the data were processed

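Poly(A) RNA of 18 libraries was prepared with a strand-specific kit, per the labels' protocols. The submitters' processing notes name bcl2fastq 2.16.0.10, TopHat2 2.0.8b, Cuffdiff 2.1.1 and the build mm9. The authors deposited estimated counts (fragments per gene, not always whole) and FPKM, for each library, both made with Cuffdiff, per the file headers. The sources used here give neither the annotation nor the strand setting. In the deposited tables the condition names N1, L-MG and H-MG were read as T-N1G, 0.3 µM and 1.0 µM, and the library number as Cuffdiff's number plus 1, which the tables do not state.

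Fragments were rounded to whole numbers, filtered with filterByExpr (13258 of 24318 genes), scaled by TMM and tested with edgeR 4.0.16 (R 4.3.3), by quasi-likelihood over 6 group means and 11 contrasts, with Benjamini-Hochberg adjustment. Genes left unprocessed by Cuffdiff were not used. Intervals cover 95%. Depth was 18164382 to 21196909 fragments per library, without molecular identifiers, so fragments are not all independent molecules. The members, lists and tests were chosen with earlier results of these data known. Besides all 8 members, the paralog Cct6b and the checks Mafg and Nfe2l1, the genes named are the largest and smallest change of each list per line at 1.0 µM and the 8 most similar patterns. Scripts were tested on simulated data. Library numbers pair the samples where every same-number correlation of deviations is over 0.1, which held in 5 of 9 two-group comparisons: T-N1G against mock under vehicle (0.246 to 0.324) and at 1.0 µM (0.645 to 0.818), 0.3 µM (0.251 to 0.318) and 1.0 µM (0.166 to 0.256) against vehicle in mock cells, and 0.3 µM against vehicle in T-N1G cells (0.512 to 0.627). Other settings were library size alone, RLE, DESeq2 1.42.0, limma 3.58.1 on log2(FPKM + 1) or log2(FPKM + 0.1), no filter, only the groups compared, a block for library number, each library left out, and both number 3 libraries at 1.0 µM left out.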

Additional observations from a re-analysis of the deposited data

Results flagged for a closer look

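The genes below were called by the interaction test, given as the T-N1G minus the mock log2 change. Only the 8 members and the genes named above as a list's largest or smallest change at 1.0 µM were screened. Those genes were picked from the same data, and other genes of the lists are left out. Of all genes 22.9% were called higher and 22.1% lower at 1.0 µM, and of 10 tested tubulin genes 3 and 6. Among the TRiC subunits Cct3 was called, with 0.44 at 0.3 µM and 0.61 at 1.0 µM. Among the cofactors at 1.0 µM the difference was 0.77 for Pdcl, 0.48 for Pdcl3, 0.58 for Pdrg1, 0.46 for Tbce, -0.55 for Tbcc and -0.46 for Uri1. Among client transcripts at 1.0 µM it was -0.60 for Actb, -0.31 for Actr3, 1.09 for Rptor, 2.39 for Tuba4a, -0.86 for Tuba1b and -0.56 for Tubb3. For the heat shock regulator Hsf1 it was 0.54. For proteasome subunits it was 2.51 for Psma5, 2.03 for Psmd11, 0.81 for Psmc2 and 0.75 for Psmb5.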

How the results depend on the processing

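Over 28 alternatives, 18 of which left out 1 library, member values kept direction and call in 2249 cases, gained the call in 60, lost it in 61 and changed sign in 94. The cause of these changes was not tested. All calls of Cct3 and Cct4 between the lines and both interactions of Cct3 held throughout.

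Counts of members lower in T-N1G than mock cells under vehicle (1) were 2 with library size alone, with DESeq2 and with the replicate block, 3 without the number 3 libraries and 5 with only the groups compared, where 4882 genes were called instead of 2141. At 0.3 µM (3) they were 6 with only the groups compared and 5 without the number 3 libraries. The fit without the number 3 libraries called 2959 genes in either direction under vehicle and 7101 at 0.3 µM. At 1.0 µM (5) the count was 1 with only the groups compared. The interaction at 0.3 µM gave 1 lower member, Cct4, instead of 0, and 5873 genes instead of 3332, with only the groups compared. At 1.0 µM against vehicle in T-N1G cells library size alone gave 1 lower member instead of 0. Median changes at 1.0 µM were 0.33 with library size alone in T-N1G cells, and 0.59 in T-N1G cells and 0.63 in mock cells without the number 3 libraries. From 0.3 to 1.0 µM that median was 0.15 in mock cells without them. In that step mock cells had 2 higher members instead of 1 with library size alone, RLE, DESeq2, no filter, the block, only the groups compared, no number 3 libraries, and limma with either pseudocount. They had 0 lower instead of 1 with RLE, DESeq2, no filter, only the groups compared, no number 3 libraries and limma. T-N1G cells had 0 higher instead of 1 with library size alone, no filter or only the groups compared, and 3 without the number 3 libraries, and 0 lower with only the groups compared.

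Sign changes concerned values near 0. Cct6a in T-N1G over mock cells at 0.3 µM (0.0024) was -0.017 with library size alone, -0.010 with RLE, -0.0094 with DESeq2, -0.0034 with no filter, -0.0011 with the replicate block and -0.012 with limma. Tcp1 at 1.0 µM over vehicle in mock cells (-0.022) was 0.063 with RLE, 0.058 with DESeq2, 0.025 with no filter, 0.036 with only the groups compared, 0.041 with limma and 0.096 without the number 3 libraries, where it was 0.019 in T-N1G cells. From 0.3 to 1.0 µM Cct8 in T-N1G cells was 0.032 with RLE, 0.022 with DESeq2, 0.017 with limma and 0.084 without the number 3 libraries. In mock cells it was 0.028 with RLE, 0.024 with DESeq2, 0.023 with only the groups compared, 0.016 with limma and 0.096 without the number 3 libraries. In that step Cct2 was -0.018 in mock cells with library size alone and 0.0055 in T-N1G cells without the number 3 libraries. The interaction of Cct8 at 1.0 µM was -0.039 with library size alone, -0.017 with RLE, -0.021 with DESeq2, -0.050 with no filter, -0.018 with limma and -0.016 without the number 3 libraries.

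Leaving out 1 library gave 1 to 2 lower members under vehicle and 1301 to 2609 genes called, with 1301, 1407 and 1311 without T-N1G replicate 1, mock replicate 1 and mock replicate 2 under vehicle. It gave 1 to 5 lower members at 0.3 µM, and 0 to 1 for the interaction at 1.0 µM. In the dose step it gave 0 to 2 higher and 0 to 1 lower in each line. Ranges across 0 between the lines were -0.0082 to 0.098 for Cct6a under vehicle and -0.058 to 0.035 at 0.3 µM. Tcp1 at 1.0 µM over vehicle ranged from -0.14 to 0.018 in T-N1G cells and -0.053 to 0.072 in mock cells. In the dose step Cct2 ranged from -0.22 to 0.0043 in T-N1G and -0.0057 to 0.12 in mock cells, and Cct8 from -0.10 to 0.082 in T-N1G and -0.057 to 0.056 in mock cells. Interactions at 0.3 µM ranged from -0.11 to 0.0040 for Cct6a and -0.060 to 0.048 for Cct8, and at 1.0 µM from -0.19 to 0.026 for Cct7 and -0.11 to 0.071 for Cct8.

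In comparisons whose library numbers pair, the replicate block changed the call of Cct7 under vehicle (adjusted p = 0.0225 against 0.0622) and of Tcp1 at 0.3 µM over vehicle in T-N1G cells (0.0289 against 0.066), and no other member's. Elsewhere the numbers do not pair, and the block added Cct6a to the dose step in mock cells and Cct7 to the lines at 0.3 µM.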
